A study of Mus musculus with 4 samples.

Results

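The genes described here are the mouse zinc finger genes whose symbol is exactly Zfp followed by digits, with Zfp36 left out because its fingers are of another kind that binds AU-rich RNA. Of 332 such genes listed in the 4 deposited libraries, 231 were chosen by their measured values, an expected count of at least 30 in 1 library or more, and 101 stayed under that limit. They are a small part of the 10064 genes past the same limit, out of 15935 genes listed. The libraries are RNA sequencing profiles of bone marrow-derived macrophages from C57BL/6 mice, cultured for 5 days with M-CSF conditioned medium as the source of their growth factor. The WT macrophages are labelled only as wild type, with no statement on Cre, and the KO macrophages (labelled EZH2-/-) come from Ezh2 f/f LysM-Cre mice, in which the lysozyme M promoter drives Cre in myeloid cells. Each genotype was left without treatment (NT) or given lipopolysaccharide (LPS), the bacterial cell wall component sensed by Toll-like receptor 4, for 2 hours. Each of the 4 groups has 1 library, so there is no replicate error, no difference below was tested, and every interval given covers counting error only. The number of mice behind each library, and whether treated and untreated cells shared a culture, are not stated in the labels.

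Most Zfp genes encode proteins with C2H2 zinc fingers, short loops held by a zinc ion that read DNA in tandem. A large class of them also has a KRAB box, a short domain near the start of the protein that binds Trim28 (KAP1), which in turn brings the histone methyltransferase Setdb1, HP1 proteins and deacetylases to the bound site and silences retroelements there. KRAB zinc finger genes arose by tandem duplication and lie in clusters on the chromosome, so their sequences resemble each other and reads can map to more than 1 of them. Some Zfp proteins carry a BTB domain or a SCAN domain, which a KRAB box may accompany, and others act on RNA, ribosomes or ubiquitin. Ezh2 is the usual histone H3K27 methyltransferase of the Polycomb repressive complex PRC2.

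The libraries held between 5237782 and 5678451 expected counts. Ezh2 itself had 43 and 38 expected counts in WT NT and WT LPS and 31 and 18 in KO NT and KO LPS, so whole-gene counts were lower in both KO libraries, while a deleted exon cannot be seen in them. The 10 macrophage markers examined were all listed and summed to between 3310 and 3646 FPKM, the read share of a gene per transcript length, although Lyz2, usually abundant in these cells, had only 11.6 to 22.4 FPKM. The 7 neutrophil and precursor markers summed to 371 and 403 FPKM in WT NT and WT LPS and to 633 and 553 FPKM in KO NT and KO LPS. B cell, stromal, dendritic and mast cell markers summed to at most 6.32 FPKM in any library, and of the T cell markers Cd3e and Cd3g were at 0 and Cd4 lay between 5.82 and 12.4 FPKM. In bulk RNA, fewer cells of a type and less RNA per cell cannot be told apart, and FPKM is a share of each library, so genes strongly raised by LPS lower the values of the rest.

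The Zfp genes as a group were lower after 2 hours of LPS in both genotypes. Together they took 0.591% of all expected counts in WT NT and 0.375% in WT LPS, and 0.611% in KO NT and 0.424% in KO LPS. The median member had 87 expected counts in WT NT and 36.2 in WT LPS, and 94.0 in KO NT and 39 in KO LPS. On the log2(FPKM + 0.1) scale used for all log2 differences below, the median LPS difference of the members was −1.25 in WT, against −0.51 over all genes past the limit, and −1.09 in KO, against −0.46. In WT, 145 of 231 members (62.8%) were at least 2-fold lower with LPS, beside 24.0% of all genes, and 6 were at least 2-fold higher, beside 6.77%. In KO, 121 members (52.4%) were at least 2-fold lower, beside 20.9% of all genes, and 7 were at least 2-fold higher, beside 7.05%. The members were selected on these same counts, and 87 of them passed the limit only through NT libraries, 2 only through LPS libraries and 124 were at 30 or more in all 4. A member that passed only through NT had to have fewer counts with LPS in the genotype whose NT library passed, so these shares are descriptions and do not support a group effect.

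The 2 genotypes use separate libraries, and a member was classed by its difference in both. There were 114 falling members, at least 2-fold lower with LPS in WT and in KO (beside 16.9% of all genes), 33 stable members, less than 1.5-fold apart in both (beside 37.4%), and 6 rising members, at least 2-fold higher in both (beside 6.02%). The remaining 78 lay between these classes. Of all 231 members, 198 were below 0 on the log2 scale in both genotypes, 17 above 0 in both and 16 on opposite sides, and the Spearman correlation of the WT and KO differences was 0.83 over the members and 0.87 over all genes. The 95% Clopper-Pearson interval of the LPS to NT ratio of expected counts, scaled to the library totals, lay below 1 in both genotypes for 172 members (beside 54.4% of all genes) and above 1 in both for 11 (beside 12.4%). Scaling the libraries by the median ratio over genes instead, which moves the median of all genes from −0.51 to −0.067 in WT and from −0.46 to −0.064 in KO, left 69 falling members (beside 7.97% of all genes), 56 stable (beside 53.0%) and 7 rising (beside 8.62%). All 69 were among the 114, 21 of the 56 were among the 33, and all 6 rising members stayed in that class. After that scaling 42.4% of the members were at least 2-fold lower in WT, beside 12.1% of all genes, and 35.9% in KO, beside 10.9%.

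**Figure D1:**
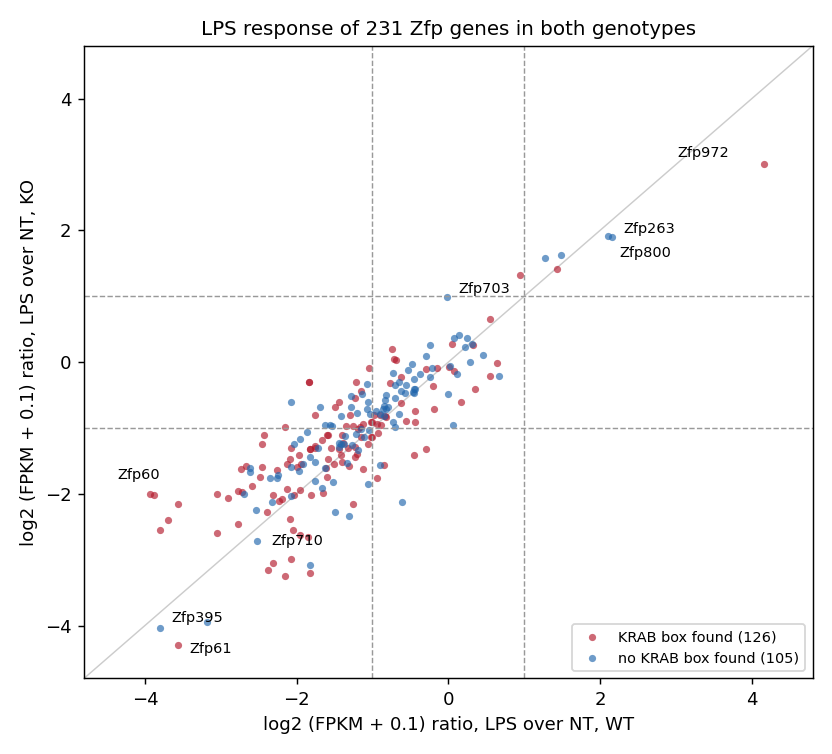
Each point is 1 of the 231 Zfp genes, with its log2 ratio of (FPKM + 0.1) between LPS and NT in WT on the x axis and in KO on the y axis. Red points have a KRAB box and blue points have none that was found, dashed lines mark 2-fold, the grey line marks equal values, and 114 genes lie in the lower left block past 2-fold in both genotypes.

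The genes that lead each class show the range of responses, and the promoters of 6 of them are printed here, the first 2 of the falling, stable and rising lists that have a promoter in RefSeq (GRCm38.p6) and, for the rising list, counts free of shared reads. Each runs 5′ to 3′ from 250 bases before the annotated start to 50 bases after it, and capitals mark, on either strand, CCAAT, known to be bound by NF-Y, GGGCGG, the motif of Sp and Klf factors, and CCGGAA, the core motif of Ets factors. Zfp61 and Zfp810 are falling, at chr7:24299500-24299799 (minus strand) and chr9:22307589-22307888 (minus strand). The start used for Zfp61 lies inside the span of the gene, chr7:24291045-24303840, and not at its outer end. Zfp207 and Zfp488 are stable, at chr11:80383029-80383328 (plus strand) and chr14:33978715-33979014 (minus strand). Zfp263 and Zfp800 are rising, at chr16:3743849-3744148 (plus strand) and chr6:28397956-28398255 (minus strand).
Zfp61: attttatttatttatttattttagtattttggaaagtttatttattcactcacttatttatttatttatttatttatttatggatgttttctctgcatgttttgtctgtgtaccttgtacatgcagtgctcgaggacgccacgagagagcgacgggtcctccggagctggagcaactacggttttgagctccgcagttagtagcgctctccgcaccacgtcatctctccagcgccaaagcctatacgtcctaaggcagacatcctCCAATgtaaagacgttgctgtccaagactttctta
Zfp810: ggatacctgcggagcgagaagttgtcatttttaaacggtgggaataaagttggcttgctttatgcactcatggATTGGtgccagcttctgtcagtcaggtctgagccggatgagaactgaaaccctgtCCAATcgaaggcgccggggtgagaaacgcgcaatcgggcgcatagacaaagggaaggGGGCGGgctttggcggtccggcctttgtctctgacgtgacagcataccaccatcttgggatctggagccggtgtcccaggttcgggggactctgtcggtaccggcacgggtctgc
Zfp207: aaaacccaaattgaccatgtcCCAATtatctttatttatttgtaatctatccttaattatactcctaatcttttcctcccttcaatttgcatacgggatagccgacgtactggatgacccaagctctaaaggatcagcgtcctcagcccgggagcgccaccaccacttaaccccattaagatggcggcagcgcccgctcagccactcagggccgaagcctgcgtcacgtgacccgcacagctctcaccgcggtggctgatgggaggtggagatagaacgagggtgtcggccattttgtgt
Zfp488: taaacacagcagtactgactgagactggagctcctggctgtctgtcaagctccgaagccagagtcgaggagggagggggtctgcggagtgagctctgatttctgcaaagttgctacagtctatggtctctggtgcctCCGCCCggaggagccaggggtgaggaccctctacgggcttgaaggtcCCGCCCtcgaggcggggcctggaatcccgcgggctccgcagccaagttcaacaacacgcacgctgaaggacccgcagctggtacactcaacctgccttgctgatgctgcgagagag
Zfp263: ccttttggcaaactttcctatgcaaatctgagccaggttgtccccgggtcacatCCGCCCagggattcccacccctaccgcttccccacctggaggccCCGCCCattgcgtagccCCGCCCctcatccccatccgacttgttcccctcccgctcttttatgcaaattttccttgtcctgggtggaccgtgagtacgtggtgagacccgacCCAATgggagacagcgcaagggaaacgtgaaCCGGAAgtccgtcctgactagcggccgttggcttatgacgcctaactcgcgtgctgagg
Zfp800: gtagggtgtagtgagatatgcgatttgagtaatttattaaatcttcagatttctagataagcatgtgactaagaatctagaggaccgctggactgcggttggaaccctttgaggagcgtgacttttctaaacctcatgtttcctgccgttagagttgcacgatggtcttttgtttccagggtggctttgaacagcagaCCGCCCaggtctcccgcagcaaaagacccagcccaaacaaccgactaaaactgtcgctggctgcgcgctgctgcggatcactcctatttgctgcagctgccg
The Zfp61 promoter is AT-rich, with 41.3% G and C and 14 CpG pairs, 1 CCAAT and neither of the other motifs. The Zfp810 promoter had 2 CCAAT and 1 GGGCGG and 20 CpG pairs. The Zfp263 promoter held 3 GGGCGG, 1 CCAAT and 1 CCGGAA, and that of Zfp800 1 GGGCGG. A match of letters is a description and not a bound site.

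The falling class was led by genes of low level. Zfp61, a KRAB zinc finger gene on chromosome 7, had 2.85 FPKM without and 0.15 with LPS in WT, and 3.45 and 0.08 in KO, from 38, 2, 46 and 1 expected counts. Both LPS libraries were far under both NT libraries, an order largely set by its choice as a falling gene. The ratio of LPS to NT was 0.0530 (95% interval 0.00620 to 0.205) in WT and 0.0235 (0.000583 to 0.138) in KO. Zfp395, a factor with a single C2H2 finger that is known to bind papillomavirus promoters and to respond to hypoxia, rests on more counts. It had 9.08 FPKM without and 0.56 with LPS in WT, and 14.5 and 0.79 in KO, from 219.8, 13.6, 349.3 and 17.6 expected counts, a 15.6-fold lower value with LPS in WT and 17.9-fold in KO. Zfp395 also had more counts in KO than in WT without LPS, at a ratio of 1.59 (1.34 to 1.89), and with LPS the interval of 0.650 to 3.005 included 1. Zfp41, which has 4 fingers and no KRAB box, had 44, 3, 45 and 1 expected counts in the same order.

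The other 7 of the 10 leading falling genes, Zfp810, Zfp157, Zfp60, Zfp398, Zfp169, Zfp101 and Zfp369, all have a KRAB box. Their levels were between 1.54 and 3.73 FPKM in the NT libraries and between 0.03 and 0.62 FPKM in the LPS libraries. Their choice by the largest fall in both genotypes largely sets this gap. For 5 of these 7, WT LPS had between 1 and 1.02 expected counts and KO LPS between 5 and 9.47, namely Zfp810, Zfp157, Zfp60, Zfp398 and Zfp169. With so few counts the size of these differences is loosely set: the KO to WT ratio with LPS for Zfp810, of 7 against 1 counts, has an interval of 0.968 to 339.4.

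Some falling genes were measured more deeply. Zfp710, a protein with 11 fingers and no KRAB box, was the highest of the falling members named here at 48.1 FPKM without and 8.31 with LPS in WT, and 52.7 and 7.89 in KO. Its ratio of LPS to NT was 0.172 (0.148 to 0.199) in WT and 0.149 (0.128 to 0.174) in KO. Zfp652, a repressor known to work with the corepressor Cbfa2t3, had 9.41 FPKM without and 1.79 with LPS in WT, and 9.63 and 2.14 in KO. Zfp292, a very large protein of 2698 residues with 14 fingers, had 191, 28, 257 and 46 expected counts in that order. Zfp809 is known for silencing murine leukaemia proviruses by binding their primer binding site and recruiting Trim28. It had 5.91 FPKM without and 1.80 with LPS in WT, and 5.04 and 2.16 in KO, so both LPS libraries were below both NT libraries, an order that the falling class largely sets. Zfp148 (ZBP-89), Zfp219, Zfp367, Zfp503, Zfp608 and Zfp644 were the other falling genes of known role. Of the 40 genes on that list 37 were measured, and 10 of the 37 were falling, 10 stable and 4 rising, where the shares of all genes are 16.9%, 37.4% and 6.02%.

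**Figure D2:**
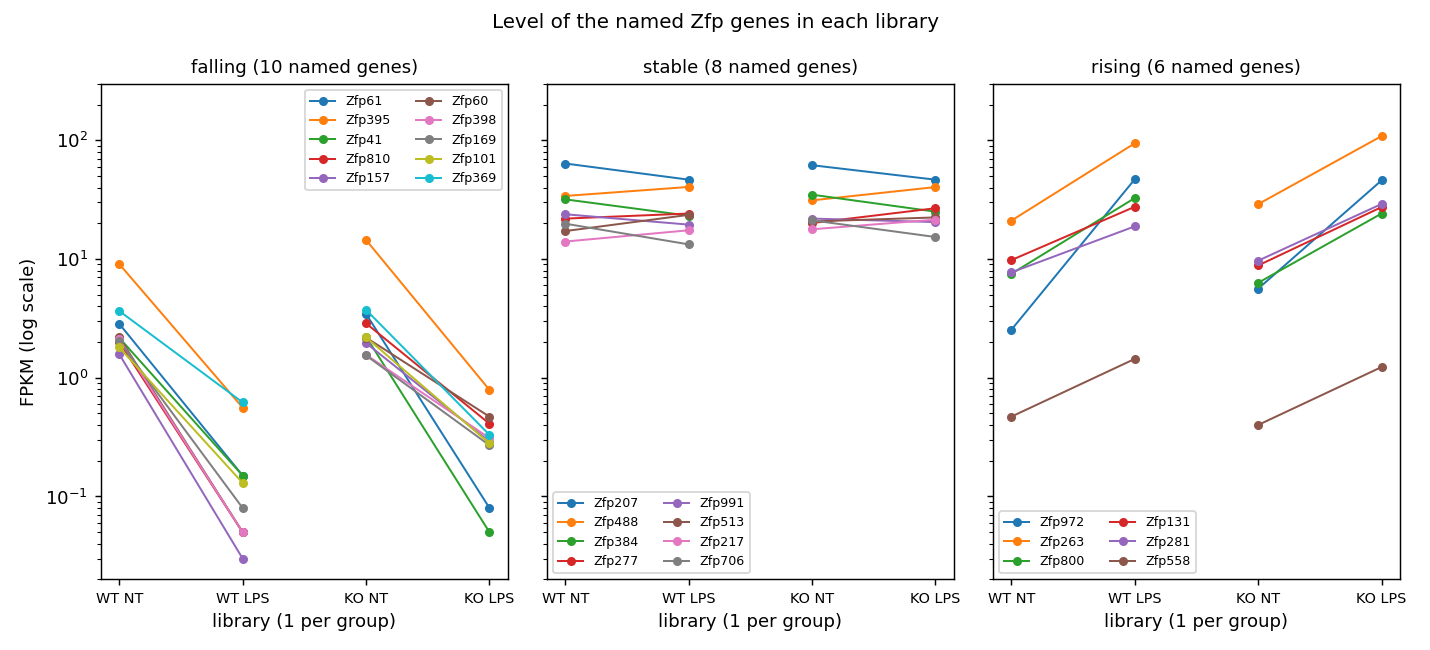
FPKM on a log axis of the 10 leading falling, 8 highest stable and 6 rising Zfp genes in each of the 4 libraries, with 1 point per library and lines joining NT to LPS within a genotype. Falling genes lie mostly under 4 FPKM without LPS, stable genes between 13.3 and 63.7 FPKM, and 5 of the 6 rising genes between 2.53 and 108 FPKM.

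All 6 rising genes are shown. Zfp263, a protein with 9 fingers and a SCAN domain, had 21.02 FPKM without and 94.3 with LPS in WT, and 29.0 and 108 in KO. Its ratio of LPS to NT was 4.49 (4.02 to 5.02) in WT and 3.74 (3.40 to 4.13) in KO, and its share of all the members' counts went from 1.16% to 8.20% in WT and from 1.55% to 8.34% in KO. It was the Zfp gene with the most counts in both LPS libraries. Zfp800, known as a repressor of endocrine cell differentiation in the gut, had 7.50 FPKM without and 32.6 with LPS in WT, and 6.30 and 24.1 in KO, at ratios of 4.35 (3.67 to 5.18) and 3.83 (3.17 to 4.66). Zfp131, which has a BTB domain besides its fingers, had 9.78 FPKM without and 27.5 with LPS in WT, and 8.82 and 27.4 in KO. Zfp281, known for its part in controlling pluripotency in embryonic stem cells, had 7.71 FPKM without and 18.8 with LPS in WT, and 9.68 and 29.1 in KO. In all 4 of these genes both LPS libraries lay above both NT libraries, an order that the rising class largely sets. None of the 4 has a KRAB box by the pattern used. The pattern also found few in the SCAN families, 1 box in the 14 measured Zscan and Zkscan genes, so a degenerate KRAB box such as may accompany SCAN is not counted.

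The remaining pair of rising genes have shared reads. Zfp972 had 2.53 FPKM without and 46.9 with LPS in WT, and 5.62 and 45.9 in KO, the largest rise with LPS of any member in both genotypes at 4.16 in WT and 3.01 in KO on the log2 scale. Its deposited model is only 883 bases long, its expected counts are fractional, its coding sequence of 81 residues has a KRAB box and no finger, and it lies at chr2:177903064-177925650 in mm10. Zfp558, a KRAB gene, had 0.47 FPKM without and 1.44 with LPS in WT, and 0.40 and 1.23 in KO. These values rest on between 8.76 and 31.3 expected counts. Zfp972 and Zfp558 passed the count limit only through LPS libraries. Zfp972 had 12.35 and 27.45 expected counts in WT NT and KO NT, and 227.71 and 207 in WT LPS and KO LPS. A member so chosen had to have more counts with LPS in the genotype whose LPS library passed. The rise of both genes is thus partly set by that choice.

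The stable members with the highest level are mostly not KRAB genes. Zfp207 (BuGZ), which binds Bub3 and helps chromosomes attach to the spindle, had 63.7 FPKM without and 46.6 with LPS in WT, and 61.6 and 46.6 in KO. The LPS libraries were the lower pair by a ratio of 0.732 (0.660 to 0.812) in WT and 0.750 (0.673 to 0.835) in KO, so stable here means a small difference and not none. After scaling by the median ratio the log2 difference of Zfp207 was −0.0011 in WT and −0.0050 in KO. Zfp384, which binds runs of A and T, was likewise lower with LPS, at 31.8, 23.2, 34.8 and 25.1 FPKM in WT without and with LPS and then in KO. Zfp217, an oncogene product that partners corepressors, was higher with LPS under either scaling, at 14.0, 17.5, 17.8 and 21.5 FPKM in that order. The rest of the 8 are Zfp488, a gene of oligodendrocyte differentiation, Zfp277, a partner of the Polycomb protein Bmi1, Zfp991, Zfp513, a retinal factor, and Zfp706, whose product has only 76 residues. They lay between 13.3 and 40.5 FPKM over all libraries. After scaling by the median ratio, Zfp217, Zfp488, Zfp277 and Zfp513 were more than 1.5-fold higher with LPS in at least 1 genotype, with log2 differences of 0.76, 0.70, 0.59 and 0.90 in WT and 0.67, 0.77, 0.81 and 0.51 in KO, and so were no longer in the stable class. Zfp991 is the only one of the 8 with a KRAB box, and its counts are fractional. Among the known roles the stable members also include Zfp598, a ubiquitin ligase for collided ribosomes, Zfp622, a ribosome maturation factor, and Zfp143, a promoter-bound factor of general use. Zfp598 had 12.3 FPKM without and 8.44 with LPS in WT, and 10.7 and 9.77 in KO.

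Presence of a KRAB box went with the falling class. A KRAB box was found in 126 of the 231 members by a pattern of 18 positions of which 11 or more had to match in the translated coding sequence; 5 members with 8 or 9 matches were counted as without. Of the KRAB members 73 (57.9%) were falling, 9 stable and 2 rising, and of the 105 other members 41 (39.0%) were falling, 24 stable and 4 rising. The median LPS difference was −1.43 in WT and −1.29 in KO for KRAB members and −1.06 and −0.79 for the other members, beside −0.51 and −0.46 for all genes. For the mean of both genotypes, KRAB members were lower by 0.45 at the median. Where members had whole counts in all 4 libraries, as counts without split reads are, the difference was larger at 1.09: of 32 such KRAB members 22 were falling and 1 stable, and of 78 such other members 30 were falling and 16 stable. At a pseudocount of 1 FPKM the difference was 0.15 and with 100 or more counts it was 0.26.

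**Figure D3:**
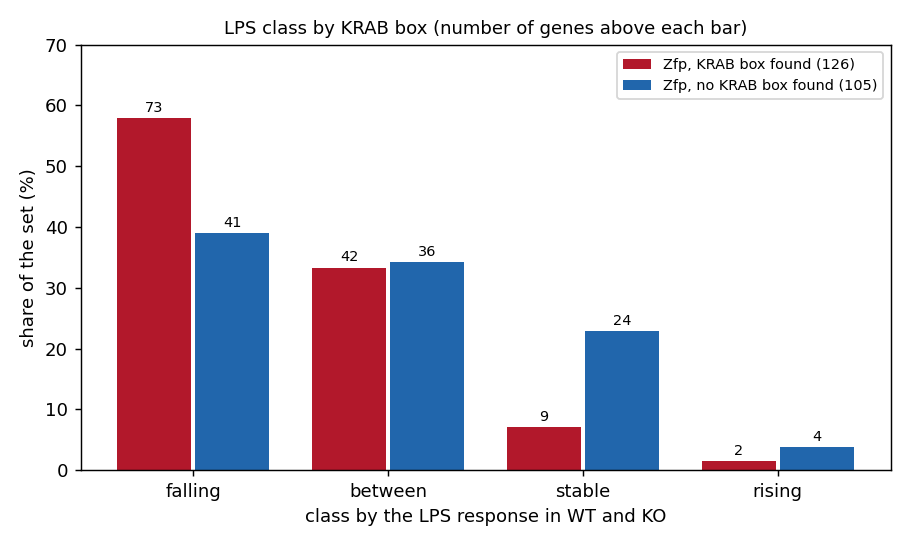
Share of the 126 Zfp genes with a KRAB box and the 105 without one that were falling, between, stable or rising with LPS in both genotypes, with the number of genes above each bar. Falling genes are 57.9% of the KRAB set and 39.0% of the others, and stable genes 7.14% and 22.9%.

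KRAB members also had fewer counts than the others, with a median largest count of 74.7 against 152, and among all genes the share lower with LPS in WT was 40.4% at 30 to 60 counts and 14.8% at 240 or more. Members were therefore also compared within tiers of expected count in the NT library of the other genotype, which the LPS difference at hand did not use. In WT, among genes of 60 to 120 counts, 81.0% of 42 KRAB members and 65.4% of 26 other members were at least 2-fold lower with LPS, against 35.0% of 1699 genes. In KO the order of both member sets turned in that tier, at 61.5% of 39 KRAB members and 65% of 20 others, against 32.6% of 1709 genes. Among those of 120 to 240 counts the shares of KRAB members, other members and all genes were 70%, 46.9% and 27.1% in WT, and in KO they were 52.4%, 32.4% and 22.4%. At 240 or more counts, with only 7 KRAB members in WT and 5 in KO, they were 42.9%, 39.3% and 14.8% in WT and 20%, 22.2% and 11.9% in KO. Members exceeded all genes in each tier of both genotypes, while KRAB members exceeded other members in 4 tiers in WT and 2 in KO. This does not remove the choice by count, which is the same for all genes in the comparison.

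**Figure D4:**
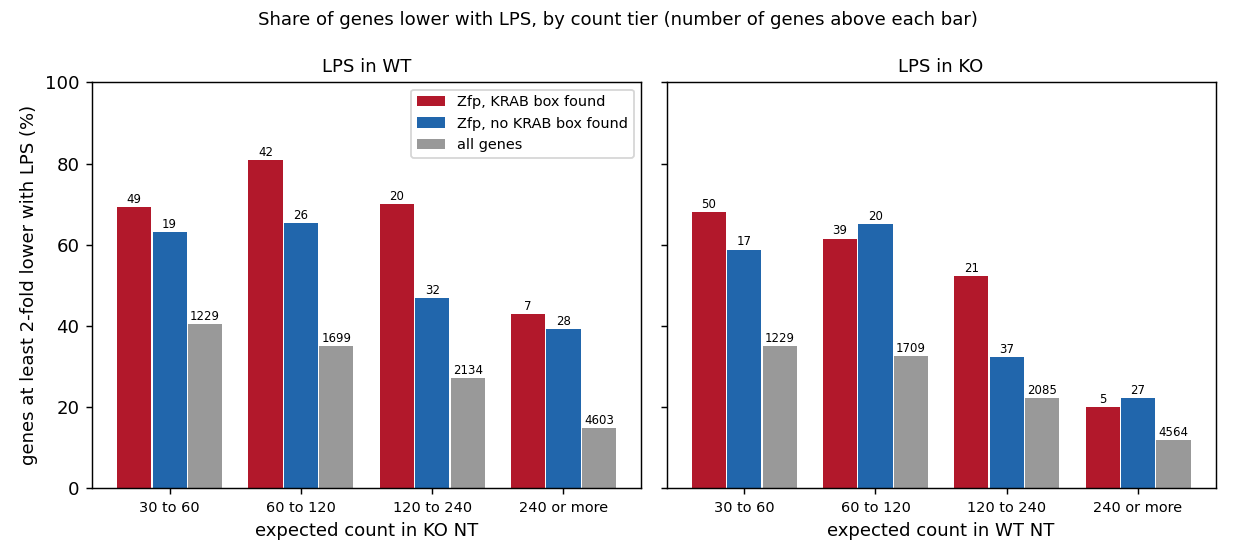
Share of genes at least 2-fold lower with LPS in WT (left) and KO (right), by expected count in the NT library of the other genotype, with the number of genes above each bar. Both Zfp sets stand above all genes in every tier, from 81.0% against 35.0% at 60 to 120 counts in WT to 20% and 22.2% against 11.9% at 240 or more counts in KO.

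Position in the genome also differed between the classes, over all 231 members. Of these, 87 passed the count limit only through NT libraries, a choice that partly sets a fall. Falling members also had fewer counts than stable ones, with median largest counts of 78.8 and 181. Position was not compared within count tiers. Of the falling members 74.6% had at least 1 other zinc finger gene within 200 kb, of the members between the classes 59.0%, of the stable 42.4% and of the rising 33.3%. At least 3 such neighbours were found for 53.5%, 34.6%, 27.3% and 0%. Runs of 5 or more members with gaps of at most 500 kb held 83 members, of which 60.2% were falling, against 32.6% of the 89 members that stood alone. The share of falling genes was 49.4% over all members and 16.9% over all genes, to be read beside each count below. Of the members without a KRAB box, 13 of 21 in runs and 20 of 66 alone were falling, and of those with one 37 of 62 and 9 of 23. The largest run, 20 KRAB members at chr17:21008941-23564226 in mm10, had 11 falling and 2 stable members. A run at chr17:32765496-33631716 had 7 of 9 falling, including Zfp101, one at chr13:67194506-67729178 had 6 of 11, and one at chr7:127233061-127885996, with only 2 KRAB members of 8, had 6. Other runs held fewer, with 3 of 7 falling at chr6:47835633-48445992 and 1 of 5 at chr8:69209018-69774911, whose 5 members all have a KRAB box. Fractional counts, left where RSEM splits reads between similar genes, were found in 94 of 126 KRAB members and 27 of 105 others, and in all but 3 members of the largest run. Zfp966 and Zfp967 had identical expected counts in all 4 libraries, 33.1, 6.63, 17.5 and 11.4, and so give 1 measurement, not separate ones.

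Length, fingers, 3 prime UTR content, level and CpG content were also compared between the classes. The median deposited transcript length was 3506 bases in falling, 3323 in stable and 3541 in rising members, and its Spearman correlation with the mean LPS difference was 0.032 over 231 members. The number of C2H2 fingers had medians of 11, 8 and 5.5, and a correlation of −0.18, but among KRAB members alone the falling had 12 and the stable 13. Copies of ATTTA per kb of 3 prime UTR, the core of elements that destabilise mRNA, had medians of 1.87, 1.71 and 3.44, with a correlation of 0.025, where all genes gave 1.11, 1.55 and 1.98 in the same classes. The value for rising members rests on only 5 genes. Level separated the classes more, with median mean FPKM of 2.26, 6.49 and 18, but the mean over libraries includes the LPS values that set the class, and all genes had 4.91, 21.8 and 24.7. Promoters of falling members had a median of 12.5 CpG pairs in 300 bases, those of stable 18 and those of rising 21, while all genes had 21, 22 and 18 and KRAB members alone 11 in the falling and 10.5 in the stable class.

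Promoter letters differed between KRAB members and the others. Of the 192 members with a promoter in the table, CCAAT or its complement stood in 59.8% of 112 KRAB members and 41.2% of 80 others, against 38.02% of all 27025 promoters and 38.7% of those of genes past the limit. GGGCGG went the other way, at 40.2% and 60%, against 35.9% and 65.7%. CCGGAA was in 47.3% and 31.2%, against 15.2% and 31.4%. TATAAA was found in 4.46% and 7.50%, against 14.2% and 6.80%. By class, CCAAT was in 53.1% of 96 falling, 44.4% of 27 stable and 66.7% of 6 rising promoters. In the same order CCGGAA was in 39.6%, 40.7% and 50%, and GGGCGG in 42.7%, 63.0% and 83.3%. Single genes varied within a class. GGGCGG had 2 copies in Zfp488 and none in Zfp207, both stable, and 1 in Zfp810 and none in Zfp61, both falling.

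Between genotypes the members differed little without LPS. The median KO to WT difference was 0.054 on the log2 scale, against 0.018 over all genes, with 1 member at least 2-fold lower in KO (beside 0.855% of all genes) and 1 at least 2-fold higher (beside 1.06%). With LPS the median was 0.21, against 0.089, with 5 members at least 2-fold lower (beside 1.08%) and 17 at least 2-fold higher (beside 2.22%). Of those 17, 15 have a KRAB box, and they rest on 1 to 12 expected counts in WT LPS and 5 to 32 in KO LPS, with an interval that includes 1 for 10 of them. Of the 5 lower, the interval includes 1 for 4, and Zfp658 is the exception. Zfp672 is among these 5 with 34 counts in WT LPS and 32 in KO LPS, since the deposited length was 1093 bases in the one and 2919 in the other. Zfp966 and Zfp967, with identical counts, are both among the 17. The counting interval lay below 1 for 9 members without LPS (beside 12.1%) and above 1 for 20 (beside 14.8%), and with LPS for 7 (beside 9.64%) and 37 (beside 21.3%). Members had fewer counts than all genes, with a median largest count of 98.3 against 245, and fewer counts give wider intervals. Whether members differed less than other genes at equal counts was not tested. The LPS difference was less negative or more positive in KO than in WT for 156 members (67.5%), against 59.4% of all genes, and by 0.16 at the median, against 0.063. The comparisons share the libraries, so these counts describe 1 pattern and not several. Neutrophil markers differed between the genotypes as given above, and their part in these differences was not tested.

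Few members had an interval off 1 in the same direction in both states. The interval was below 1 both without and with LPS for 2 members (beside 5.14% of all genes) and above 1 for 10 (beside 7.75%). Here too the lower counts of the members widen their intervals relative to those of all genes. Zfp658, a KRAB gene, was the lowest in KO, with 40.0 expected counts without and 50 with LPS in WT, and 17.0 and 19 in KO, at KO to WT ratios of 0.426 (0.226 to 0.768) and 0.409 (0.228 to 0.706). Zfp97 had 83.2, 46.1, 48.2 and 24.4 in that order. On the other side, Zfp960 had 18.2, 5.25, 54.0 and 19.2 expected counts, at ratios of 3.005 (1.74 to 5.44) and 4.09 (1.48 to 14.0), though its FPKM of 1.79 against 3.54 without LPS gives a smaller difference, and the deposited length was 1795 bases in WT NT and 2680 in the other libraries. Zfp97 and Zfp960 are close neighbours, at chr17:17121108-17147138 and chr17:17064103-17089631, they share reads with similar genes, and they differed in opposite directions. Both encode 546 residues with 13 fingers. Without LPS, KO had fewer counts of Zfp97, 48.2 against 83.2, and more of Zfp960, 54.0 against 18.2. Their intervals take split reads as counts, and whether reads were split differently between this pair in KO and WT was not tested. Zfp292, with whole counts, was higher in KO in both states, at ratios of 1.35 (1.11 to 1.63) and 1.77 (1.08 to 2.94). Zfp992, Zfp933, Zfp52 and Zfp362 were the next of the 10.

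Zfp703 and Zfp568, of known role, had unlike LPS responses in the 2 genotypes. Zfp703 encodes a corepressor of the Nlz family with an atypical finger, and it had 21.7 FPKM without and 21.5 with LPS in WT, and 18.3 and 36.4 in KO. Its LPS to NT ratio was 1.005 (0.872 to 1.16) in WT and 2.01 (1.76 to 2.30) in KO, from 396, 395, 333 and 618 expected counts. Zfp568, a KRAB protein known for silencing a placental Igf2 transcript, had 2.89 FPKM without and 1.35 with LPS in WT, and 2.59 and 2.44 in KO, with ratios of 0.466 (0.332 to 0.646) and 0.941 (0.705 to 1.254). The KO LPS library was thus the high one for Zfp703 and the WT LPS library the low one for Zfp568, each a single library, and the difference between genotypes was not tested. Scaling by the median ratio turned the LPS difference of Zfp568 in KO from −0.08 to 0.30 and that of Zfp703 in WT from −0.01 to 0.44. Zfp91, a ubiquitin ligase of the non-canonical NF-κB pathway, was lower with LPS in both genotypes, at 34.6, 14.99, 34.6 and 20.2 FPKM in WT without and with LPS and then in KO.

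The partners of KRAB proteins were measured too. Over a list of 26 genes of the KRAB corepressor machinery, all measured, the median LPS difference was −0.72 in WT and −0.71 in KO, beside −0.51 and −0.46 over all genes. In WT 6 of them (23.1%) were at least 2-fold lower, beside 24.0% of all genes, in KO 7 (26.9%), beside 20.9%, and 5 were falling in both, beside 16.9%, so these counts are near those of all genes. None was at least 2-fold higher. Trim28, the protein that KRAB boxes bind, had 43.8 FPKM without and 23.1 with LPS in WT, and 44.3 and 24.6 in KO. Setdb1, the H3K9 methyltransferase, had 16.3, 5.49, 16.7 and 6.07 FPKM in that order, and Atf7ip, its stabilising partner, had 7.38, 1.59, 8.28 and 2.13. Chd4, the remodelling ATPase of the NuRD complex, was not lower, at 49.8, 58.7, 53.8 and 66.2. Zfp410, known as a factor that controls Chd4, had 8.57, 4.82, 8.30 and 5.02 FPKM, the opposite direction from Chd4. Among related families, the median LPS difference was −1.17 in WT and −0.80 in KO for 28 Zbtb genes, −1.94 and −1.60 for 14 Zscan and Zkscan genes and −0.17 and −0.21 for 10 Klf genes. Scaling by the median ratio made the Klf medians 0.27 and 0.17, so their direction turned, and left those of the other families and of the corepressor list below 0. Zbtb, Zscan and Zkscan genes were thus also below the median of all genes, and the differences between families were not tested. The Zscan and Zkscan medians were also below those of the KRAB Zfp members, −1.43 in WT and −1.29 in KO. Of those 14 genes 10 were falling, beside 57.9% of KRAB members, and the pattern found a KRAB box in only 1.

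At the count limit itself, Zfp229, Zfp995 and Zfp963 were just inside, with largest counts of 30.1, 30.4 and 30.9, and Zfp85, Zfp248 and Zfp54 just outside, with 29.8, 29.6 and 29.2.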

How the data were processed

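RNA from 4 libraries of mouse macrophages was measured by sequencing, 1 library per group. Per the submitters' processing notes, reads were processed with Bowtie and RSEM on mm10, with no versions or further settings given in the sources used here. The authors deposited, for each library, RSEM expected counts and FPKM per gene by NCBI gene ID, with the transcript length assigned in that library. Expected counts are estimates: a read that matches several genes is split between them, which gives fractional counts. A gene absent from a library's table was taken as 0. Symbols came from the RefSeq gene table, and 38 IDs had none.

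Differences were computed as log2(FPKM + 0.1) with Python 3.11.15, pandas 2.3.3, numpy 2.4.6 and scipy 1.17.1. Counting intervals are 95% Clopper-Pearson intervals on the expected counts, rounded and scaled to the library totals; reads amplified by PCR are not independent molecules, so they cover counting error only. No count model was used, as no group has replicates. The 2-fold rule and the counting interval were tried on simulated counts that had no variation between cultures and no split reads. The 1.5-fold and 3-fold rules and the classes over both genotypes were not tried on them. KRAB boxes and fingers were searched in translated GENCODE M21 coding sequences instead of RefSeq proteins, with the KRAB limit of 11 of 18 positions set after the scores were seen, and coordinates are those of mm10 (GRCm38). The named genes are the 10 with the largest mean difference among falling members, all rising members, the 8 stable members of highest mean FPKM, up to 6 per side with KO to WT intervals off 1 in both states, the 3 nearest the limit on each side, and a list of known roles; Zfp966, Zfp967 and Zfp672 were named after their values were seen. The members, lists and rules were chosen with earlier results of these data known. Alternatives changed the pseudocount, the count limit, the scaling, the fold and the members used.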

Additional observations from a re-analysis of the deposited data

How the results depend on the processing

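Over 12 results and 10 alternative settings, 73 of 99 values differed from the reported one by less than 1.5 times or the margin used, 26 moved further and 0 changed sign. Most of these values are counts of members, which cannot change sign. With a pseudocount of 1 FPKM, 96 members were lower with LPS in WT (41.6%, beside 16.7% of all genes), 78 in KO (33.8%, beside 14.5%) and 65 in both, and the KRAB difference at the median was −0.15. With at least 100 expected counts these were 61, 41, 40 and −0.26, of 114 members, and the median KO to WT difference without LPS was 0.023; 53.5% of such members were lower in WT, beside 19.3% of all such genes, and 36.0% in KO, beside 16.4%. With a 3-fold rule 86 and 65 were lower, 3 and 4 higher, 57 falling, 3 rising and 72 stable, and with a 1.5-fold rule 15 were stable. Scaling by the median ratio gave 69 falling and 56 stable members and medians of −0.82 in WT and −0.70 in KO. Restricting to the 110 members with whole counts, a setting chosen after seeing the data, gave 63 and 55 lower, 52 falling, 17 stable and a KRAB difference of −1.09. A KRAB box at 15 of 18 positions, also added later, stayed within that margin. With 5237782 to 5678451 counts a library, many members rest on fewer than 40 counts with LPS, and 1 library per group leaves the spread between cultures unmeasured.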
